A study of Homo sapiens with 10 samples.

Results

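The secreted paracrine mediators of mammary progesterone action examined here were TNFSF11 (RANK ligand), WNT4, WNT5A, FGF18, BMP7, CXCL12 and STC1. They were chosen by name, and every probe set that the array annotation assigns to one of these symbols alone was used, which gave 7 of the 11963 genes and 19 of the 19070 single-gene probe sets. Expression was measured on 10 Affymetrix U133A 2.0 arrays, 1 array for each condition, as Robust Multi-array Average (RMA) values on the log2 scale, so that a difference of 1 is a doubling of signal. A value below 6 was taken as near background.

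All cells were derived from T47D-Y, a subline of the T47D breast cancer line that lacks progesterone receptor (PR). The iKR line carried an inducible vector for the K388R mutant of PR-B, which cannot be SUMOylated at that lysine, the iWT line carried the wild type receptor in the same system, and the PR-null iEV line carried the empty vectors. The lines were clonal and each vector was represented by 1 line, so that vector and line cannot be told apart. Cells were serum starved and treated with the dimerizer AP21967, the inducer, or its vehicle for 2 d, and then with the synthetic progestin R5020 or vehicle for 6 h. In both the iKR and the iWT line, all 4 combinations of inducer and progestin were arrayed, whereas the iEV line was arrayed only without R5020, with and without AP21967.

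In the breast, PR is found in a subset of luminal epithelial cells, and much of the response to progesterone in neighbouring PR-negative cells is relayed by secreted factors. RANK ligand and WNT4 are the classical relays, the first acting through RANK and the second through Frizzled receptors, whereas fibroblast growth factors, bone morphogenetic proteins and chemokines signal through their own receptors between epithelium and stroma. The arrays measured mRNA of these ligands in the epithelial line alone, with no responding cell present.

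PGR, the gene placed in the vectors, was checked first. Its signal in iKR cells was 11.38 with AP21967 and R5020, 12.08 with AP21967 alone, 11.43 with R5020 alone and 10.65 with neither. In iWT cells it was 11.89, 11.34, 11.77 and 11.12 in the same order, and in iEV cells it was 6.17 with AP21967 and 6.25 without. PGR mRNA was therefore high in both receptor lines also in the absence of the inducer. The authors describe receptor expression in this system as dependent on AP21967, with protein followed by western blotting. Receptor protein is not measured by the arrays, so its level without the inducer was not tested here. The 8 luminal markers examined (among them KRT8, KRT18, GATA3 and EPCAM) were at or above 8.68 on every array, whereas of the 4 basal or myoepithelial markers measured, KRT14 ranged between 5.71 and 6.02, CNN1 between 6.54 and 7.10, ACTA2 between 7.64 and 7.90 and KRT5 between 7.79 and 8.16. Of 8 fibroblast markers, LUM and COL3A1 stayed at or below 5.65 and the other 6 reached 6, among them VIM (8.59 to 9.18) and COL1A1 (9.59 to 9.77). Array medians differed little, between 8.12 and 8.15. Of the 8 luminal markers 0 rose and 2 fell in the inducer-dependent response to R5020 whose fit is described with the secreted factors, ESR1 (log2 difference -0.82 ± 0.14, SE, limma adjusted p = 0.025) and FOXA1 (-0.92 ± 0.16, adjusted p = 0.026), whereas of 4 basal and 6 fibroblast markers tested 0 passed in limma and 0 had an unadjusted p below 0.05. Of all genes tested in that response, 2.1% passed in limma and 14.8% had an unadjusted p below 0.05. The part of these markers in the results for the secreted factors was not tested.

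All 7 genes reached the threshold of 6 with their brightest probe set, although TNFSF11 barely did so. Reaching 6 is not in itself evidence of expression, as present calls were not used. The mean over the 10 arrays was 8.58 for BMP7, above the array medians of 8.12 to 8.15. It was below them for STC1 (7.76), CXCL12 (7.51), WNT5A (7.50), FGF18 (7.41), WNT4 (6.84) and TNFSF11 (6.01). Of the 19 probe sets, 17 reached 6 on at least 1 array and 2 stayed below 6 throughout, namely 210643_at of TNFSF11 (4.44 to 4.77) and 213425_at of WNT5A (4.71 to 5.69). The brighter TNFSF11 probe set, 211153_s_at, was at 6 or more on 6 of 10 arrays. STC1 and BMP7, in contrast, were above 6 with each of their probe sets on every array.

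**Figure D1:**
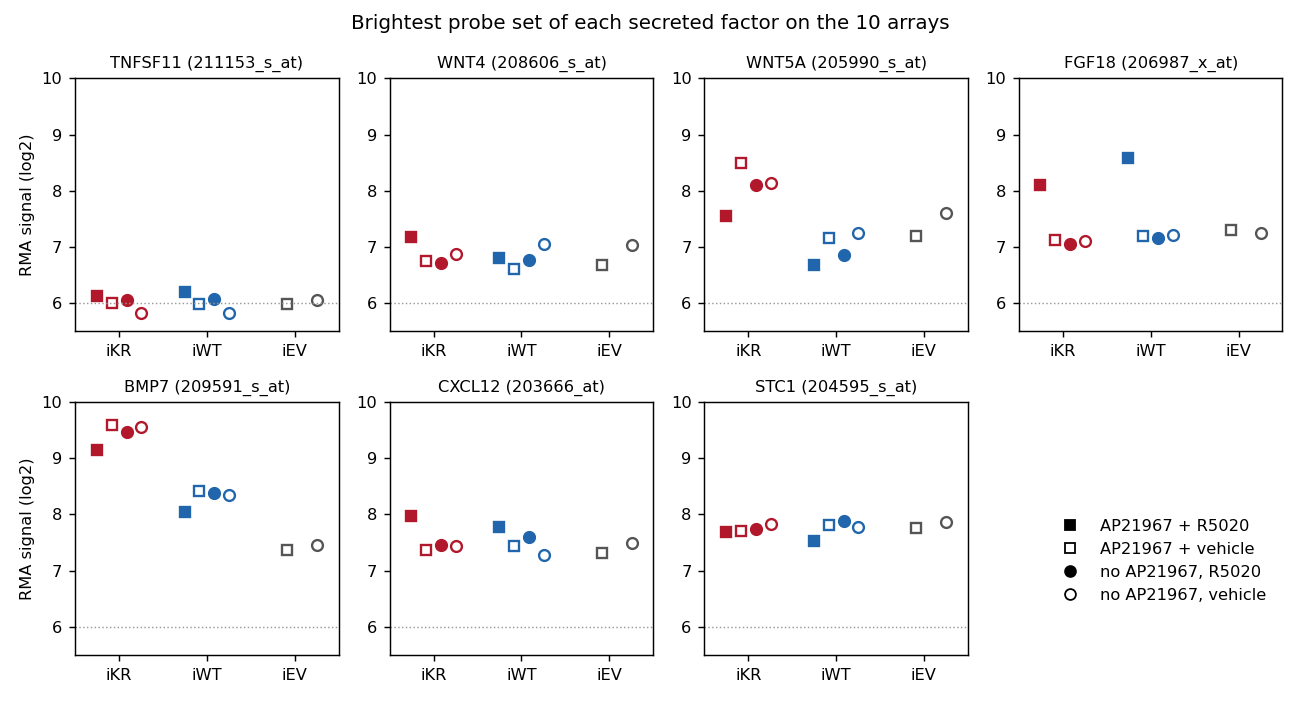
RMA signal (log2, y axis) of the brightest probe set of each secreted factor on the 10 arrays, 1 point per array, grouped by line on the x axis; squares mark cells given AP21967, filled symbols mark R5020, and the dotted line marks 6. FGF18 stands apart on the 2 arrays with AP21967 and R5020, BMP7 separates the 3 lines, and TNFSF11 lies at the dotted line.

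The response to R5020 was asked in 2 ways. First, the log2 difference between the R5020 and the vehicle array was taken in each line and inducer state, with no test since each is 1 array against 1. Second, a linear model (limma) was fitted to the 8 iKR and iWT arrays, in which the lines served as replicates of a shared response, and the R5020 effect with AP21967 was set against the R5020 effect without it (the inducer-dependent R5020 response). Its p-values measure only the spread between the lines, each sampled once per condition, after limma has moderated it towards that of all genes. When 1 array is left out, the R5020 effect of that inducer state rests on the other line alone and the spread comes from the arrays of the other inducer state. Of the 10911 genes that reached 6 on at least 1 array, 229 (154 higher, 75 lower) passed an adjusted p of 0.05, a background of 2.1%. Among the 7 secreted factors 1 rose, 0 fell, and 4 had an unadjusted p below 0.05, as did 1611 of all 10911 genes (14.8%). The median of the 7 differences was -0.07, against 0.0 over all genes tested.

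FGF18, a ligand of FGF receptors that acts mainly in a paracrine manner, was the member that rose. On its brightest probe set, 206987_x_at, the signal in iKR cells was 8.11 with AP21967 and R5020 and 7.12 with AP21967 alone. In iWT cells the same pair of arrays gave 8.58 with R5020 and 7.20 without it. The other 6 arrays lay between 7.05 and 7.31, so the 2 arrays with both inducer and progestin stood above every other one without overlap. In the order of the 10 levels, only 2 of the 9 gaps between neighbours exceeded the residual SD of 0.10. They set the induced progestin-treated iWT array above its iKR counterpart and both above the rest. Here and below, the residual SD is the one moderated by limma, which draws each gene's own value towards that of all genes.

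The inducer-dependent response of FGF18 was 1.24 ± 0.14 on the log2 scale (SE, 95% interval 0.92 to 1.56), a 2.36-fold increase (limma adjusted p = 0.0038). Without AP21967, the R5020 difference of FGF18 was -0.06 in iKR and -0.05 in iWT cells. With the inducer it was 0.99 in iKR and 1.38 in iWT cells. FGF18 was the 1 member past 2 fold in iWT cells, where 0.614% of genes passed, and it stopped just short in iKR cells, with 0 members past 2 fold against a background of 1.48%. With averaged probe sets the FGF18 response was 0.69 (limma adjusted p = 0.028). Its R5020 difference was then 0.60 in induced iKR and 0.80 in induced iWT cells, no longer past 2 fold. In that setting 134 genes passed 2 fold in induced iKR cells, CXCL12 among them (1.04), and 51 in induced iWT cells. The CXCL12 average includes 209687_at, which reached 6 on only 1 array. In uninduced cells 0 members passed on their brightest probe sets, against 0.0275% of genes in iWT and 0.00917% in iKR.

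The 5 FGF18 probe sets did not respond alike. When each of the 19070 probe sets was fitted on its own (340 passed, 1.78%), 5 of the 19 member probe sets passed, 4 higher and 1 lower. Of these, 3 were FGF18 probe sets, with 1.24 for 206987_x_at (adjusted p = 0.0047), 1.08 for 211029_x_at (adjusted p = 0.0046) and 0.86 for 211485_s_at (adjusted p = 0.0077). Those 3 were also the brightest, with means of 7.41, 7.39 and 6.80. The other two, 214284_s_at and 206986_at, lay close to 6 on every array and gave 0.20 (adjusted p = 0.47) and 0.06 (adjusted p = 0.93).

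Names ending in _x_at or _s_at mark probe sets whose probes can match more than 1 transcript, of the same or of another gene. All 3 responding FGF18 probe sets are of these kinds, and when such probe sets were left out, the FGF18 estimate from 206986_at alone was 0.06 (adjusted p = 0.92). Whether another transcript contributed to the signal was not tested.

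**Figure D2:**
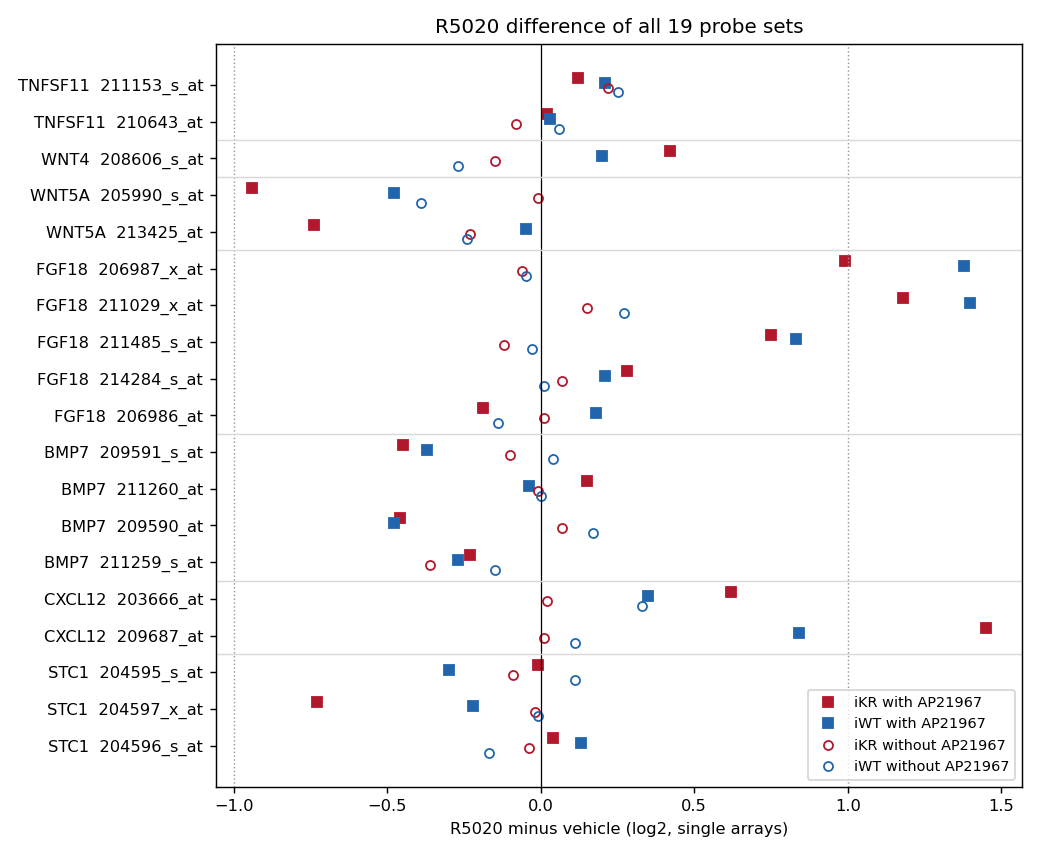
R5020 minus vehicle (log2, x axis) for each of the 19 probe sets (y axis), 1 symbol per pair of single arrays; squares are cells given AP21967, open circles cells without it, and dotted lines mark 2 fold. The squares of 3 FGF18 probe sets and of CXCL12 209687_at lie far to the right of their circles, whereas those of WNT5A in iKR cells lie to the left.

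CXCL12, the chemokine ligand of CXCR4, gave a different picture on each of its probe sets. The brighter one, 203666_at, read 7.98 in iKR cells with AP21967 and R5020 and 7.36 with AP21967 alone. In iWT cells it read 7.78 with both and 7.43 with AP21967 alone. Without AP21967 it was 7.45 with R5020 and 7.43 without in iKR cells, and 7.60 with R5020 and 7.27 without in iWT cells, while iEV cells gave 7.32 and 7.50 with and without the inducer. The 2 induced progestin-treated arrays were again the highest, but the uninduced iWT pair also differed by 0.33, and the inducer-dependent response was 0.32 ± 0.14 (SE, limma adjusted p = 0.36). Only 2 of the 9 gaps between neighbouring levels exceeded the residual SD of 0.10.

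The dimmer CXCL12 probe set, 209687_at, was at 6.52 in iKR cells with AP21967 and R5020, against 5.07 with AP21967 alone. The corresponding iWT arrays gave 5.78 and 4.94. All 6 other arrays fell between 4.97 and 5.17, below the threshold. Its difference of 1.09 ± 0.18 (SE) passed when each probe set was fitted on its own (limma adjusted p = 0.024). That call was lost without either uninduced iKR array (1.03, adjusted p = 0.066), and only 1 array reached 6. The R5020 difference in induced cells was 1.45 in iKR and 0.84 in iWT on this probe set, but 3 of those 4 arrays were below 6, so no order of the lines was read from it. On 203666_at it was 0.62 in iKR and 0.35 in iWT cells.

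The gene-level CXCL12 estimate depended on the probe set. With averaged probe sets the inducer-dependent response was 0.70 (limma adjusted p = 0.085), and the R5020 difference with AP21967 was 1.04 in iKR and 0.60 in iWT cells. On 203666_at the estimate of 0.32 became 0.16 without either uninduced iKR array (adjusted p = 1.0), 0.18 without either induced iKR array (adjusted p = 0.51), 0.47 without either uninduced iWT array (adjusted p = 0.43) and 0.45 without either induced iWT array (adjusted p = 0.041).

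Neither classical relay passed the test. TNFSF11, which encodes RANK ligand, gave 6.13 in iKR cells with AP21967 and R5020 and 6.01 with AP21967 alone, and in iWT cells 6.19 and 5.98. Without AP21967 it gave 6.05 with R5020 and 5.83 without in iKR cells, 6.08 and 5.83 in iWT cells, and the iEV arrays gave 5.98 with the inducer and 6.05 without. Thus R5020 arrays of both lines lay 0.12 to 0.25 above their vehicle arrays whether or not AP21967 was present, and the inducer-dependent response was -0.07 ± 0.11 (SE, 95% interval -0.32 to 0.18, limma adjusted p = 0.86). That interval is not a detection limit, as WNT4, with a similar SE of 0.12, did not pass at 0.52 (limma adjusted p = 0.074). How small a TNFSF11 change could have passed was not tested. In the order of levels, 1 of 9 neighbouring gaps exceeded the residual SD of 0.077.

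WNT4, a canonical and non-canonical WNT ligand, was measured by a single probe set. Induced iKR cells gave 7.17 with R5020 and 6.75 without, and uninduced iKR cells gave 6.72 with R5020 and 6.87 without. In iWT cells the values were 6.80 with R5020 and 6.61 without after induction, and 6.77 and 7.05 without AP21967. The R5020 difference of WNT4 was therefore 0.42 in iKR and 0.20 in iWT cells given AP21967, and -0.15 and -0.27 in the same lines without it. The inducer-dependent response was 0.52 ± 0.12 (SE, 95% interval 0.24 to 0.80) and did not pass (limma adjusted p = 0.074). Leaving out 1 array gave 0.41 to 0.64, with an adjusted p of 0.0026 without either induced iWT array, where the induced effect is that of iKR alone, and of 0.076 to 0.44 in the other fits.

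WNT4 was also the 1 member with an unadjusted p below 0.05 for the inducer itself. In vehicle-treated cells, AP21967 arrays gave 6.75 in iKR, 6.61 in iWT and 6.68 in iEV cells, against 6.87, 7.05 and 7.03 without AP21967. The inducer arrays were lower in all 3 lines without overlap, by 0.30 ± 0.07 on average (SE, limma unadjusted p = 0.002, adjusted p = 0.48). Across all genes, 0 of 10911 (0.0%) passed for AP21967, with 981 at an unadjusted p below 0.05, and 0 of the 7 secreted factors passed. The other 6 members had average AP21967 differences between -0.06 and 0.09. In the order of the 10 WNT4 levels, the highest was induced iKR with R5020 and the next was iWT with neither agent, and 2 of 9 gaps exceeded the residual SD of 0.087.

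WNT5A, a mostly non-canonical WNT ligand, ran in the opposite direction in induced cells. On 205990_s_at the iKR line read 7.55 with AP21967 and R5020, 8.49 with AP21967 alone, 8.11 with R5020 alone and 8.13 with neither. In the iWT line the values were 6.68, 7.16, 6.85 and 7.24 in the same order, and the iEV line gave 7.19 with AP21967 and 7.60 without. The R5020 difference with AP21967 was -0.94 in iKR and -0.48 in iWT cells. Without it, the difference of WNT5A was -0.01 in iKR and -0.39 in iWT cells. The inducer-dependent response of -0.51 ± 0.18 (SE, limma adjusted p = 0.21) did not pass. It was -0.74 without either induced iWT array (adjusted p = 0.0036), -0.70 without either uninduced iWT array (adjusted p = 0.15), -0.28 without either induced iKR array (adjusted p = 0.32) and -0.33 without either uninduced iKR array (adjusted p = 0.90). On the dim probe set 213425_at, R5020 gave -0.74 in induced iKR and -0.05 in induced iWT cells, all below 6.

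BMP7, a ligand of the BMP branch of the TGF-beta family, spanned the widest range of the members, 2.23, and its level followed the line. On 209591_s_at the iKR arrays read 9.15 with AP21967 and R5020, 9.59 with AP21967 alone, 9.46 with R5020 alone and 9.56 with neither. The iWT arrays read 8.05, 8.42, 8.38 and 8.34 in the same order, and the iEV arrays 7.36 with AP21967 and 7.45 without. The 3 lines did not overlap, and the order was iKR, iWT and iEV. Here 6 of the 9 gaps between neighbouring levels exceeded the residual SD of 0.08.

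The line differences were tested on the 6 vehicle-treated arrays with the inducer as a covariate. BMP7 was higher in iKR than in iEV cells by 2.17 ± 0.06 (SE, 4.49 fold, limma adjusted p = 1.3e-06). In iWT cells it exceeded iEV by 0.97 ± 0.06 (SE, 1.96 fold, limma adjusted p = 5.7e-05). Both comparisons use the same 2 iEV arrays, and the iKR and iWT lines were not tested against each other. Of all genes tested, 25.7% passed between iKR and iEV, with 2 of 7 members, and 23.8% between iWT and iEV, with 1 of 7 members, so that passing in these contrasts was common.

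WNT5A was the second of the 2 members higher in iKR than in iEV cells, by 0.92 ± 0.15 (SE, 1.89 fold, limma adjusted p = 0.0038). Its iWT level differed from iEV by -0.19 ± 0.15 (SE, adjusted p = 0.42), a value that turned to 0.08 without the uninduced iEV array (adjusted p = 0.71) and reached -0.47 without the induced one (adjusted p = 0.045). The remaining 5 members differed from iEV by -0.16 to -0.02 in iKR and by -0.11 to -0.01 in iWT cells, and none of them passed. FGF18 had the largest of these, at -0.16 ± 0.06 in iKR cells (SE, unadjusted p = 0.027, limma adjusted p = 0.087).

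**Figure D3:**
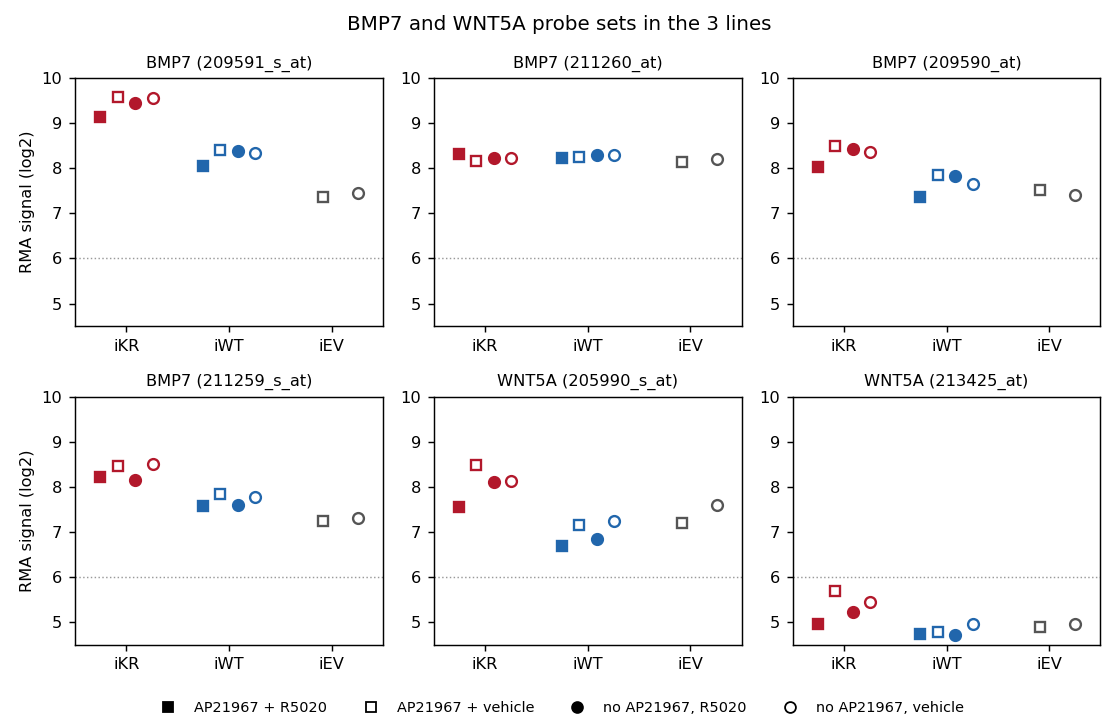
RMA signal (log2, y axis) of the 4 BMP7 and 2 WNT5A probe sets by line (x axis), 1 point per array with symbols for inducer and progestin. BMP7 209591_s_at, 209590_at and 211259_s_at are highest in iKR cells, BMP7 211260_at is level between 8.15 and 8.32, and WNT5A is highest in iKR cells on both probe sets among vehicle-treated arrays.

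As with FGF18, the probe sets of BMP7 differed among themselves. Fitted singly, 5 of 19 member probe sets were higher in iKR than in iEV cells (18.8% of all probe sets passed in either direction) and 3 of 19 in iWT than in iEV cells (17.2%). For BMP7 the iKR differences were 2.17, 1.21 and 0.98 on 209591_s_at, 211259_s_at and 209590_at, and the iWT differences 0.97, 0.52 and 0.30 on the same probe sets, all past the threshold. On 211260_at they were 0.02 and 0.10, with adjusted p of 0.86 and 0.34. WNT5A 213425_at was higher in iKR cells by 0.64 ± 0.10 (SE, adjusted p = 0.0037), although below 6.

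Induced cells given R5020 read lower for BMP7 on 3 of 4 probe sets, in both lines. The differences were -0.45 in iKR and -0.37 in iWT cells on 209591_s_at, -0.46 and -0.48 on 209590_at, and -0.23 and -0.27 on 211259_s_at. In uninduced cells, the difference on 209590_at was 0.07 in iKR and 0.17 in iWT, whereas on 211259_s_at it was -0.36 and -0.15. Accordingly 209590_at had an inducer-dependent response of -0.59 ± 0.11 (SE, limma adjusted p = 0.036) and 211259_s_at one of 0.01 (adjusted p = 0.99). The call on 209590_at was lost without any 1 of the 4 uninduced arrays (-0.64, adjusted p = 0.18, without an iKR and -0.54, adjusted p = 0.30, without an iWT array), with an estimate of similar size. On the brightest probe set the response was -0.38 ± 0.11 (SE, adjusted p = 0.14). Leaving out 1 array gave -0.45 to -0.31 there, with an adjusted p of 0.034 without either induced iWT array, where the induced effect is that of iKR alone, and of 0.14 to 0.81 in the other fits.

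STC1, a secreted glycoprotein first described as a calcium-regulating hormone of fish, had a range of 0.37 over the 10 arrays, which with the 0.36 of TNFSF11 was the smallest among the members. Its brightest probe set, 204595_s_at, ranged from 7.52 in iWT cells with AP21967 and R5020 to 7.89 in iWT cells with R5020 alone, and the iKR arrays lay between 7.69 and 7.83 and the iEV arrays between 7.76 and 7.86. The lines overlapped, and 1 of 9 gaps exceeded the residual SD of 0.096. The inducer-dependent response was -0.17 ± 0.14 (SE, 95% interval -0.47 to 0.14, limma adjusted p = 0.65). On 204597_x_at it was -0.46 ± 0.16 (adjusted p = 0.23), with 6.47 in iKR cells given both agents against 7.20 with AP21967 alone, and on 204596_s_at it was 0.20 ± 0.11 (adjusted p = 0.51).

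**Figure D4:**
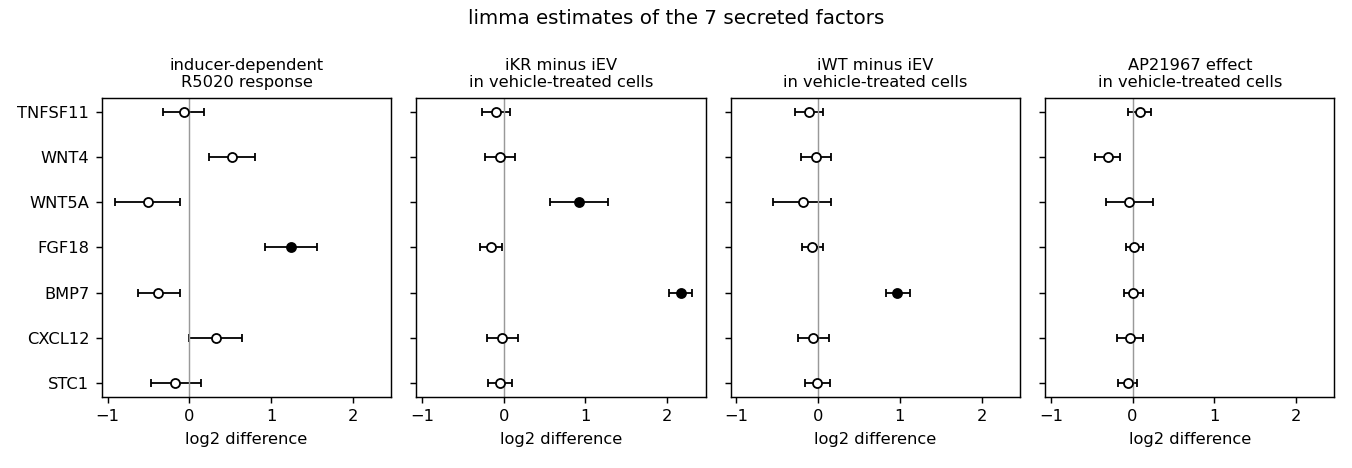
Estimates (log2 difference, x axis) with 95% intervals for the 7 secreted factors (y axis) in the 4 limma contrasts, on a common scale; filled points passed an adjusted p of 0.05. FGF18 is the filled point in the R5020 panel at 1.24, BMP7 and WNT5A are filled for iKR minus iEV, and BMP7 alone for iWT minus iEV.

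To ask whether the mutant and wild type receptors differed in their R5020 response, the induced differences were subtracted (iKR minus iWT), again with 1 array per condition and no test. Of all genes, 2.5% differed by more than 1.5 fold, and 0 of the 7 members did so on their brightest probe set. The values were 0.29 for STC1, 0.27 for CXCL12, 0.23 for WNT4, -0.07 for BMP7, -0.09 for TNFSF11, -0.39 for FGF18 and -0.46 for WNT5A. Net of the R5020 difference without AP21967, WNT5A passed 1.5 fold (-0.83), in a setting where 684 of the 10911 genes did so. CXCL12 was at 0.58 and STC1 at 0.49 in that setting. Without that subtraction, STC1 was at -0.10 with averaged probe sets. Among the dimmer probe sets, CXCL12 209687_at (0.61) and WNT5A 213425_at (-0.70) exceeded 1.5 fold, from arrays of which all but 1 were below 6. Of all 19070 single-gene probe sets, 455 did so. On the 3 FGF18 probe sets that responded, the iKR minus iWT values were -0.39, -0.23 and -0.09.

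The genes whose values ran most like a member over the 10 arrays were sought for the 3 members with a range of at least 1, as a description only, since the points share lines and treatments. For FGF18 these were IQCB1 (Pearson r = 0.978), PPM1H (0.976) and DYNLL1 (0.974), and PPM1H read 9.14 in iKR and 9.19 in iWT cells with AP21967 and R5020, against 8.25 and 8.30 with AP21967 alone. For BMP7 they were ULBP2 (0.988), CHML (0.982) and SMAGP (0.977), and SMAGP read 12.23 in iKR, 11.77 in iWT and 11.03 in iEV cells with AP21967 alone. For WNT5A they were ARHGAP11A (0.967), TUBA4A (0.954) and CTSC (0.951), each with a range under that of WNT5A (0.68, 0.63 and 0.58, against 1.82). ARHGAP11A lay near background, at 6.08 in iKR cells with AP21967 alone and at or below 5.94 on every other array.

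Upstream sequence was available for 5 of the 7 genes, taken from RefSeq (GRCh38.p14) as windows of 250 bases before and 50 after each start, 7 windows in all since WNT5A and TNFSF11 have 2 each. They were searched on both strands for the steroid receptor half-site TGTTCT, for the spaced palindrome core ACANNNTGT and for the looser half-site TGTNCT, which includes every TGTTCT. No window held TGTTCT or ACANNNTGT, which 14.8% and 5.37% of the 35116 promoter windows of the table hold. TGTNCT, present in 41.4% of all windows, occurred once, on the reverse strand of the CXCL12 window with its first base in reading direction 177 bases before the start. The absence of these letters says nothing about sites elsewhere. The 250 bases before the start are shown for FGF18 (chr5:171419397-171419646, + strand) and CXCL12 (chr10:44385098-44385347, - strand). These are the members with a probe set that passed as higher in the inducer-dependent R5020 response when fitted on its own. The bases run 5′ to 3′ on the strand of the gene, with the match in capitals.
FGF18: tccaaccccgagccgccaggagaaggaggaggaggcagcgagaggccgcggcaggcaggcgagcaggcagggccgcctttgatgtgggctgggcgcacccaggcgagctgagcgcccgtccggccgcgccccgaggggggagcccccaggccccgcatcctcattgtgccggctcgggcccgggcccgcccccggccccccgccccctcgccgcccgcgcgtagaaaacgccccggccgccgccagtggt
CXCL12: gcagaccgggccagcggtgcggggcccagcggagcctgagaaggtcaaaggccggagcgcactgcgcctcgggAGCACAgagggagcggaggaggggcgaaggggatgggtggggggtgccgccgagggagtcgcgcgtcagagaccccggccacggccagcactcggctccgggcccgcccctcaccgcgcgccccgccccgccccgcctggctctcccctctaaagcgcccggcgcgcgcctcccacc
Both windows were rich in G and C, at 77.7% for FGF18 and 77.0% for CXCL12 over the full 300 bases, against a median of 58.7% over all windows. The WNT4 window was higher still at 85.7%, the WNT5A windows were at 56.3% and 63.7%, and the TNFSF11 windows at 40.3% and 65.7%. A link between these shares and the response was not tested.

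The pathways in which these ligands act were examined as lists of related genes, described by counts. For the inducer-dependent R5020 response, 0 of 11 further WNT ligands and 0 of 9 tested genes of the CXCL12 receptor and CXC chemokine list passed, with 0 at an unadjusted p below 0.05 in limma. Of 18 further BMP ligands and secreted antagonists 0 passed, with 2 at an unadjusted p below 0.05. Of 15 further FGF ligands 0 passed, with 0 unadjusted, and of 17 other secreted mammary factors 0 passed, with 5 unadjusted, beside the 14.8% of all genes at an unadjusted p below 0.05. The members themselves were kept out of all lists. In the CXC chemokine list, 10 of 19 genes with a probe set stayed below 6 on all arrays.

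The genes that passed lay in the lists of receptors, regulators and targets. Counts in these lists stand beside the 2.1% of all genes tested that passed. As the lists were chosen with earlier results of these data known, the counts are a description only. In the RANK axis, 1 of 10 genes rose and 2 fell. TRAF5, an adaptor of TNF receptor family members, reached 10.10 in iKR and 9.42 in iWT cells with AP21967 and R5020, against 6.52 and 6.34 with AP21967 alone, a response of 3.42 ± 0.16 (SE, limma adjusted p = 3.7e-05). TNFRSF11B, which encodes osteoprotegerin, the soluble decoy receptor of RANK ligand, was 6.39 in iKR and 6.81 in iWT cells with both agents, against 7.18 and 7.48 with AP21967 alone (-0.65 ± 0.13, adjusted p = 0.039). ID2, a helix-loop-helix inhibitor also listed among BMP targets, fell by 0.87 ± 0.12 (adjusted p = 0.010).

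In the WNT lists, 1 of 18 receptors and secreted regulators rose. This was FZD1, a Frizzled receptor, at 9.50 in iKR and 9.34 in iWT cells with AP21967 and R5020, against 8.01 and 8.16 with AP21967 alone (1.28 ± 0.13, limma adjusted p = 0.0021). Of the 12 target and feedback genes listed, 6 had a probe set, and of these 2 rose and 2 fell. LEF1, a transcription factor of the pathway, rose by 1.26 ± 0.12 (adjusted p = 0.0011) and MYC by 0.79 ± 0.12 (adjusted p = 0.012). TCF7L2, a partner of beta-catenin, fell by 0.64 ± 0.13 (adjusted p = 0.042), and RNF43, a ligase that removes Frizzled receptors, fell by 0.57 ± 0.11 (adjusted p = 0.041).

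In the BMP list of receptors, SMADs and targets 0 of 20 rose and 2 fell, ID2 and BAMBI. BAMBI, a decoy receptor, was 10.77 in iKR and 10.97 in iWT cells with AP21967 and R5020, against 11.67 and 12.02 with AP21967 alone (-0.83 ± 0.11, limma adjusted p = 0.0079). Of 14 FGF receptors and feedback genes 1 fell, SPRED2, an inhibitor of the RAS to ERK cascade (-0.69 ± 0.12, adjusted p = 0.028). Of 13 stanniocalcin and calcium-handling genes 1 fell, ATP2B4, a plasma membrane calcium pump (-0.74 ± 0.11, adjusted p = 0.015). The median response of the lists lay between -0.13 and 0.36, the highest being that of the 6 WNT target and feedback genes, beside 0.0 for all genes.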

How the data were processed

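Total RNA of the 10 samples was hybridised to Affymetrix U133A 2.0 arrays. The authors deposited log2 values for 22277 probe sets, processed from the scans by RMA in the R package affy (background adjustment, quantile normalization and probe set summary, version not given in the sources used here). Quantile normalization forces a common distribution on all arrays, so a shift of all genes at once cannot be seen. The scans and present calls were not used here.

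Probe sets were named through GEO's platform annotation: 19070 had 1 gene symbol, 1043 several and 2164 none listed, and only the first were used. The brightest probe set by mean stood for each gene, and the 10911 genes that reached 6 on at least 1 array were tested. The linear models were fitted with limma 3.58.1 in R 4.3.3 (lmFit and eBayes without trend, Benjamini-Hochberg adjustment over all genes tested). The inducer-dependent R5020 response was fitted on 8 arrays with 2 residual degrees of freedom (8.8 after moderation), and the line and AP21967 effects on 6 arrays with 2 (7.6 after moderation). Single-array differences were called past 2 fold, and iKR minus iWT differences past 1.5 fold, without a test. Scripts were tested on simulated data. Tables and figures were made with pandas 2.3.3 and matplotlib 3.10.9. The number of arrays, 1 per condition, limits the precision.

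The members and gene lists were chosen with earlier results of these data known. Named were all members, PGR, the markers given, up to 5 called genes a list, and the 3 genes most correlated with each member of range 1 or more. Alternatives covered the filter, the choice of probe set, cyclic loess, median centring, an intensity trend and leaving out each array.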

Additional observations from a re-analysis of the deposited data

Results flagged for a closer look

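In the probe sets listed here the R5020 difference ran in opposite directions in the iKR and iWT lines, each from 1 pair of arrays, and the difference between the lines was not tested. With AP21967, FGF18 206986_at gave -0.19 in iKR and 0.18 in iWT cells (iKR minus iWT -0.37), although this probe set stayed close to 6. BMP7 211260_at gave 0.15 in iKR and -0.04 in iWT cells (0.19). Without AP21967, STC1 204595_s_at gave -0.09 in iKR and 0.11 in iWT cells (-0.20), and BMP7 209591_s_at gave -0.10 and 0.04 in the same order of lines (-0.14). TNFSF11 210643_at, below 6 throughout, gave -0.08 in iKR and 0.06 in iWT cells (-0.14), and FGF18 206986_at gave 0.01 in iKR and -0.14 in iWT cells (0.15).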

How the results depend on the processing

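Only 1 array per condition and the lines as replicates limit every test here. For the inducer-dependent R5020 response, 229 genes passed, against 149 after cyclic loess (114 higher, 35 lower) and 351 with limma's trend (224 higher, 127 lower), and between 124 and 1528 when 1 array was left out, the highest without either induced iWT array. FGF18 passed in all 8 of these (1.04 to 1.44) but gave 0.06 without _x_at and _s_at probe sets, as did BMP7 (0.06, against -0.38). The iKR minus iEV difference of WNT5A passed in all 6 leave-one-out fits (0.61 to 1.22) and under 7 other settings (0.78 to 0.92). Without _x_at and _s_at probe sets, the BMP7 line differences rested on 211260_at, at 0.02 for iKR (adjusted p = 0.85) and 0.10 for iWT (adjusted p = 0.31). In that setting, which leaves out genes with no other probe set, 1623 and 1518 genes were called, against 2809 and 2602. BMP7 209590_at also lacks such an ending but is dimmer than 211260_at, so it was not used there. Fitted on its own, it gave 0.98 for iKR (limma adjusted p = 4.4e-05) and 0.30 for iWT (adjusted p = 0.014). Its inducer-dependent R5020 response was -0.59 (adjusted p = 0.036). Leaving out 1 array gave 1554 to 2366 calls for iKR minus iEV, 1172 to 2455 for iWT minus iEV, and 0 to 3 for AP21967. The iWT minus iEV difference of WNT5A then ranged from -0.47 to 0.08, and that of FGF18 was 0.02 with averaged probe sets and 0.04 without _x_at and _s_at, against -0.07. At 1.5 fold, 675 genes in induced iKR, 285 in induced iWT, 9 in uninduced iKR and 12 in uninduced iWT cells were called, against 162, 67, 1 and 3 at 2 fold. Uninduced iKR cells gave 0 calls with averaged probe sets, 0 without _x_at and _s_at and 2 with single probe sets, and uninduced iWT cells 1 at a mean of 7 or more. For iKR minus iWT, 273 of 10911 genes were called, 28 at 2 fold and 684 net of the uninduced difference. With single probe sets, 455 of 19070 probe sets were called. At a threshold of 7 in place of 6, 1 member in place of 0 was near background, TNFSF11. The leave-one-out fits of the called CXCL12 and BMP7 probe sets were added after seeing the data. The causes of these shifts were not tested. Pairing by replicate number was not possible, because every condition has only replicate 1. The fits instead matched arrays within each line.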
